A study of Mus musculus with 6 samples.

Results

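The normal fetal mouse testis at embryonic day 14.5 is described here through the 3 arrays labelled Control, of 6 arrays in all. Each control sample was the testis pair of 1 fetus on a mixed B6/CD1 background, taken without the mesonephroi, and the 3 fetuses came from 3 dams. The controls carried RosaNICD/+, which is 1 copy of a floxed, conditional Notch1 allele (Gt(Rosa)26Sortm1(Notch1)Dam/J) at the Rosa26 locus, and no Amh-cre. They are therefore not free of every engineered allele, but they lacked the recombinase that switches this one on. The mothers were heterozygous for Tg(AMH-cre)1Flor, a transgene that is active in Sertoli cells. The other 3 arrays held Amh-cre;RosaNICD/+ littermates, 1 per dam. They shared in the normalization and are not compared here. Biotin-labelled copies of the total RNA were read on Illumina BeadChips, on which each probe is a short oligonucleotide carried by many beads.

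At this age the testis has just been built. Sertoli cells, set on their path by Sry and Sox9, surround the germ cells in cords, secrete anti-Müllerian hormone and signal outward with desert hedgehog. Between the cords lie fetal Leydig cells, which make androgens and insulin-like 3, together with their progenitors, vessels and macrophages, while flattened myoid cells and a basement membrane wrap each cord. Male germ cells stop dividing around this time, switch off pluripotency genes and take up Nanos2 and the piRNA pathway, which silences transposons. Germ cells of the ovary enter meiosis instead.

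Every probe was scored by its mean log2 intensity over the 3 arrays, after background correction and quantile normalization. A probe counted as above background where its deposited detection p-value, taken here to set it against the negative controls of its array, was under 0.05. A gene was called above background when 1 of its probes was so on all 3 arrays, partly above when a probe was so on only 1 or 2 arrays, and not above when no probe passed on any array. Its level is that of its brightest probe, and its percentile runs from the dimmest to the brightest gene above background. Brightness differs between probes for reasons of sequence and position as well as abundance, and the values are not per length. The ranking therefore orders array signals and not molecules. In a whole organ, fewer cells of a type and less RNA per cell cannot be told apart.

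The 3 control arrays were alike in quality. Of 45281 probes, 19501, 20169 and 19682 were above background on controls 1, 2 and 3, or 43.1, 44.5 and 43.5%. The median raw intensity of those probes was 2.44, 2.19 and 2.16 times that of the probes not above background. A probe rested on a median of 42 beads on each array. Across the 9925 genes above background, Pearson's r was 0.985 between controls 1 and 2, 0.989 between 1 and 3 and 0.981 between 2 and 3. These correlations run across genes, which are not independent replicates.

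Of 19057 genes with a named probe, 9925 (52.1%) were above background in all 3 control testes. Another 2242 (11.8%) were partly above, and 6890 (36.2%) were not above background on any array. Genes above background ranged from 4.99 to 15.37 in mean log2 intensity, with a median of 8.13. They were divided by rank into 5 bands of 1985 genes. The brightest band reached down to 10.05, the second to 8.73, the middle to 7.54, the fourth to 6.28 and the dimmest to 4.99. The 1000 brightest genes carried most of the light, and the first 10 little of it. The 10 brightest took 3.46, 3.84 and 4.05% of the summed intensity of the genes above background in controls 1, 2 and 3. This sum is of raw intensities, 1 named probe per gene, less the median of the probes that passed on no array. The 100 brightest took 19.1, 19.5 and 20.2%, and the 1000 brightest 57.5, 57.9 and 58.7%.

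**Figure D1:**
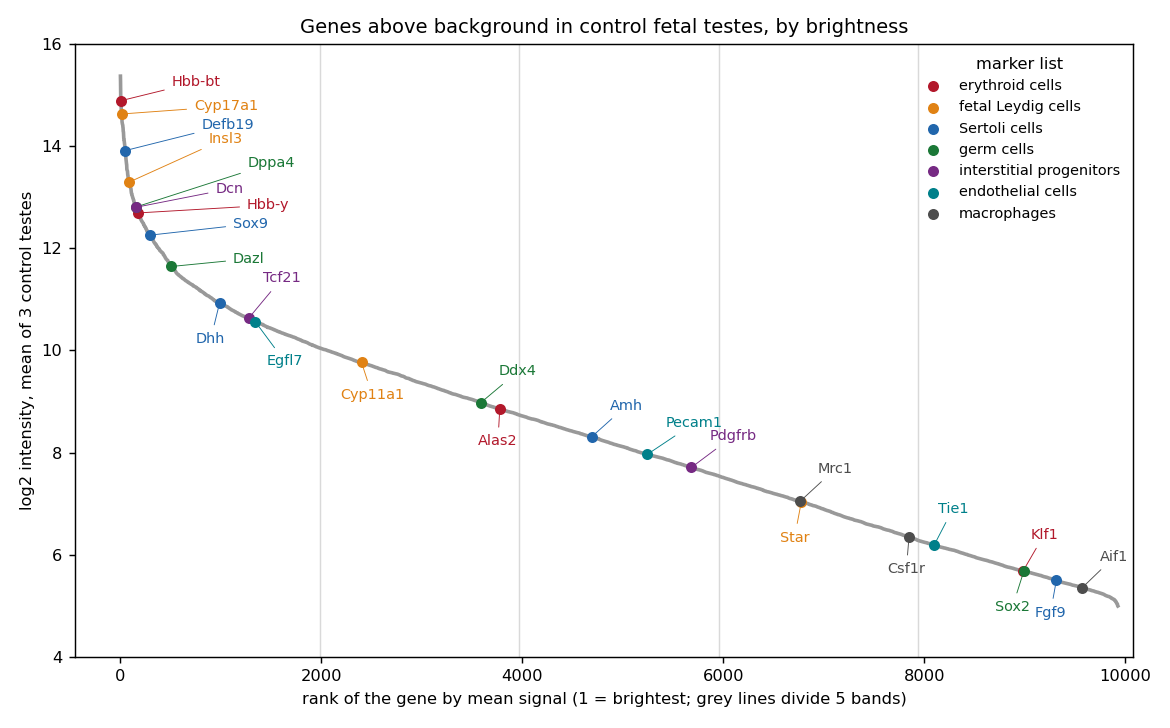
Genes above background in the control testes, ordered by mean log2 intensity over 3 arrays (vertical axis) from the brightest, at rank 1, to the dimmest, at rank 9925 (horizontal axis). Coloured points mark members of 7 marker lists. The erythroid genes shown spread from Hbb-bt at 14.89 to Klf1 at 5.68, and the fetal Leydig genes from Cyp17a1 at 14.63 to Star at 7.03. Sertoli genes spread from Defb19 at 13.91 to Fgf9 at 5.50, and the macrophage genes shown lie between 7.04 and 5.35.

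The brightest genes were those of protein synthesis, red blood cells, respiration and one step of androgen synthesis. Eef1a1, which brings aminoacyl-tRNA to the ribosome, stood first of the named genes with 15.40, 15.31 and 15.40 in controls 1, 2 and 3. The ribosomal protein genes Rpl41 (15.27 ± 0.06, SD, n = 3), Rps29 (15.04 ± 0.01) and Rpl23 (14.91 ± 0.10) followed it. Of the 30 brightest genes 12 encoded cytosolic ribosomal proteins. The other 9 of these were Rplp1, Rps12, Rpl9, Rpl38, Rpl37, Rps2, Rps24, Rps4x and Rpl10a, from 14.84 down to 14.28. Globins of the adult type held 3 places. Hbb-bt averaged 14.89 ± 0.18, Hbb-bs 14.89 ± 0.31 and Hba-a1 14.76 ± 0.26, and all 3 were lowest in control 1.

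The only gene of a testis cell type list among the 30 was Cyp17a1, which encodes the enzyme that turns progestogens into androgen precursors. It read 14.67, 14.63 and 14.59 in controls 1, 2 and 3 and ranked 12. The mitochondrial genome gave CYTB (14.68 ± 0.19) and ND4 (14.48 ± 0.16). The nuclear genome added Atp5b (14.44) and Atp5g3 (14.41), subunits of ATP synthase. Tubulin was represented by Tuba1b (14.37 ± 0.02) and Tubb5 (14.36 ± 0.02). The prolyl isomerase Ppia stood at 14.42, the RNA-binding protein Ybx1 at 14.29 and the glutathione transferase Gstm2 at 14.31.

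Some bright probes cannot be tied to 1 gene. Of the 100 brightest probes on the arrays 36 had no single gene symbol and are not in the ranking. H2ac24 (14.60), H2ac10 (14.44) and H2ac20 (14.43) encode histone H2A, their coding sequences are nearly identical, and 5 genes of this kind were among the 100 brightest. Ubb-ps (14.58) is named as a pseudogene of the ubiquitin gene Ubb. The same doubt holds for the paired globin genes and for ribosomal protein genes, which have many processed pseudogenes.

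Among the 100 brightest genes, 56 belonged to a list and 44 to none. Ribosomal proteins held 27 places, translation factors 6, and oxidative phosphorylation, cytoskeleton, chaperones and erythroid genes 3 each. Sertoli cells held 2, with Defb19 and Aard, and so did fetal Leydig cells, with Cyp17a1 and Insl3. Imprinted genes held 2 as well, with the fetal growth factor Igf2 at 14.28, 14.03 and 14.16 in controls 1, 2 and 3, and the membrane protein Dlk1 at 14.00, 13.96 and 14.12. The contractile actin Acta2 and the basement membrane collagen Col4a1 held 1 place each. Germ cells, endothelium and macrophages held none. Where the dimmest of a gene's probes above background stood for it in place of the brightest, 59 of these 100 genes were still among the 100 brightest.

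Housekeeping groups filled the upper end of the ranking as groups. Of 57 ribosomal protein genes on the array, 51 were above background, 46 of them in the brightest band, with a median percentile of 99.2. Such medians are over the members above background only, so that 50 is the median of all genes by definition. Each count of list members above background, here and below, is to be read beside the 52.1% of all genes. Translation factors had 23 of 24 above background and a median percentile of 95.5. After Eef1a1 the brightest were Eef1g (14.13), another elongation factor subunit, and the RNA helicase Eif4a2 (13.76). Here 15 members lay in the brightest band, but 7 where the dimmest probe stood for each gene. Chaperones, which fold proteins, had 20 of 23 above background at a median percentile of 96.7. Hspa8 (13.52) and the endoplasmic reticulum protein Hsp90b1 (13.21) followed Ppia. The proteasome, which degrades proteins, had 27 of 31 above background with a median percentile of 91.5, and was led by Psma2 (13.24), Psmd1 (13.17) and Psma5 (12.97).

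Energy metabolism split in level. Oxidative phosphorylation had 63 of 68 nuclear genes above background, 44 of them in the brightest band, with a median percentile of 89.3. After both ATP synthase genes its brightest member was Ndufa13 (13.35), a subunit of complex I. Glycolysis had 15 of 16 above background at a median percentile of 76.8, or 50.4 where the dimmest probe stood for each gene, led by Gapdh (11.98 ± 0.08), Pkm (11.86 ± 0.37) and Tpi1 (11.80 ± 0.01). Of its neuronal and muscle isozymes, Eno2 and Pgam2 lay in the dimmest band, both at 6.01. Aldoc (7.15) and Eno3 (6.84) lay in the fourth band, and Pfkm (9.83) in the second.

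Structure and growth were bright too. Cytoskeletal genes had 19 of 20 above background at a median percentile of 95.9, with the actin Actb at 13.23 after both tubulins. Histone variants and chromatin proteins had 12 of 14 at 93.9, led by the nucleolar chaperone Npm1 (14.17) and the nucleosome-binding protein Hmgn2 (13.58), with the replacement histone H3f3b at 13.16. Collagens and other matrix genes had 25 of 26 at 85.7. Their brightest were Col4a1 (13.54 ± 0.16), Col6a1 (13.07 ± 0.10) and Col18a1 (12.90 ± 0.10), all collagens of or near basement membranes. Replication and mitosis genes had 19 of 22 at 80.8, led by the replicative helicase subunit Mcm4 (12.59 ± 0.03), the centromeric histone Cenpa (12.58 ± 0.07) and Mcm5 (11.65 ± 0.10). Imprinted genes had 13 of 16 at 95.7. After Igf2 and Dlk1 stood the growth-restraining adaptor Grb10 (13.00 ± 0.05).

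**Figure D2:**
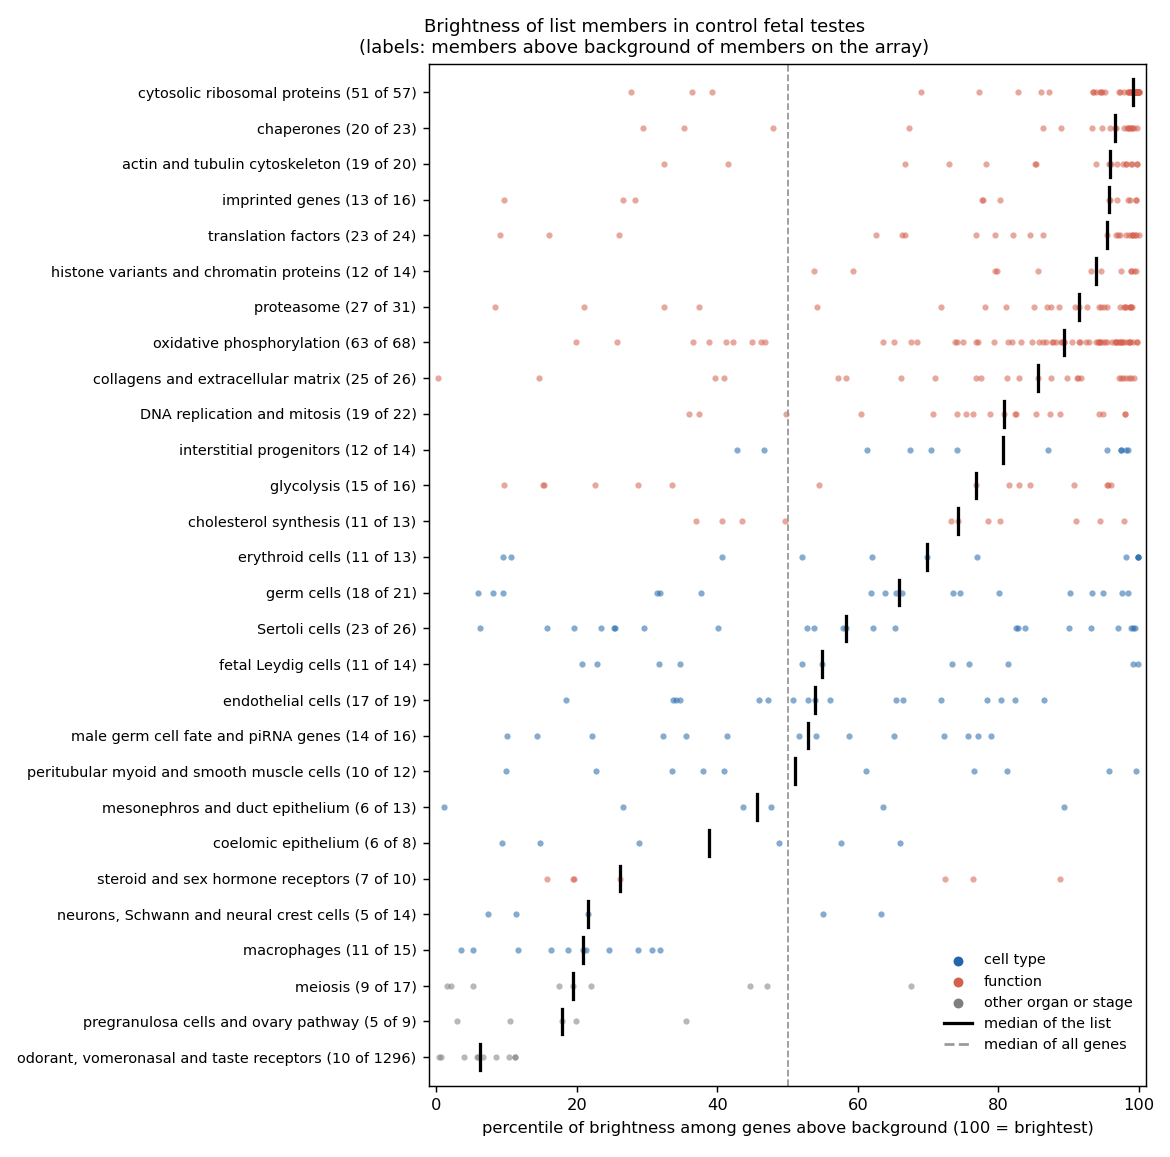
Each point is 1 gene above background, placed by its percentile of brightness among all 9925 such genes (horizontal axis), in the lists with at least 5 such members (rows). Black bars are list medians, from 99.2 for cytosolic ribosomal proteins to 6.28 for odorant, vomeronasal and taste receptors, and colours mark cell type, function and other organ or stage.

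Sertoli cell genes were nearly all above background, and they spanned the whole ranking. Of 26 on the array, 23 were above background, or 88.5% beside 52.1% of all genes. Of these, 9 lay in the brightest band and 3 in the dimmest, with a median percentile of 58.4. Defb19, a beta-defensin gene, was the brightest with 14.04, 13.73 and 13.97 in controls 1, 2 and 3, followed by Aard (13.33 ± 0.08) and the cystatin gene Cst9 (13.06 ± 0.10). The transcription factor gene Sox9 read 12.21, 12.08 and 12.48. Dhh, the hedgehog ligand, averaged 10.92 ± 0.24, and Gdnf, the growth factor that later maintains spermatogonial stem cells, 10.28 ± 0.18. Amh itself, read by 1 probe, lay in the middle band with 8.36, 7.95 and 8.61.

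Other Sertoli genes were dimmer. The orphan nuclear receptor gene Nr5a1 averaged 6.50 ± 0.30, Gata4 6.62 ± 0.43, Sox8 6.90 ± 0.25 and the growth factor gene Fgf9 5.50 ± 0.15. Dmrt1, which keeps male fate in later life, was above background on only 2 arrays, and so was Kitl, the ligand that germ cells need, with 1 of its 3 probes. Vnn1 was not above background on any array, at 4.39, 4.36 and 4.32. The genes that define the labelled tissue, Sox9, Amh and Dhh, were above background in all 3 control testes.

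Fetal Leydig cell genes ranged from the top of the ranking to its lower bands. Of 14 on the array 11 were above background (78.6%), with a median percentile of 54.9. Insl3, the hormone of testis descent, read 13.42, 13.18 and 13.28 in controls 1, 2 and 3, second to Cyp17a1. The proprotein convertase Pcsk6 averaged 10.16 ± 0.27. Cyp11a1, which makes pregnenolone from cholesterol, averaged 9.76 ± 0.21 by its brightest probe, while its other 2 probes averaged 7.11 and 5.57. Star, which carries cholesterol into mitochondria, averaged 7.03 ± 0.26, and Hsd3b1, the next enzyme after Cyp11a1, 6.34 ± 0.40. Adrenal-type members were present in part. The 11-beta-hydroxylase gene Cyp11b1 averaged 8.43 ± 0.35 and the corticotropin receptor gene Mc2r 6.47 ± 0.12, while Cyp21a1, the adrenal 21-hydroxylase gene, was not above background on any array. Fdx1, which passes electrons to Cyp11a1, was not above background either, by its only probe, at 4.33, 4.51 and 4.41.

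Cholesterol synthesis, which feeds steroid production as well as membranes, had 11 of 13 genes above background at a median percentile of 74.2. Fdps (12.57 ± 0.13), Sqle (11.55 ± 0.12) and Msmo1 (11.04 ± 0.27) led it. The remaining members on the array, Sc5d and Mvk, were partly above.

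Interstitial progenitor genes had the highest median percentile of the lists of cell types, at 80.7. They had 12 of 14 above background (85.7%), 6 of them in the brightest band. Dcn, a matrix proteoglycan gene, read 12.95, 12.89 and 12.57 in controls 1, 2 and 3. The chemokine gene Cxcl12 followed at 12.73 ± 0.04 and the growth factor receptor gene Pdgfra at 12.42 ± 0.22. The secreted signal Wnt5a averaged 12.41 ± 0.07, and Ptch1, the receptor and target of desert hedgehog, 9.65 ± 0.13. Gli1, another hedgehog target, was not above background by its only probe, and Maf was partly above.

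Myoid and smooth muscle genes had 10 of 12 above background (83.3%), with a median percentile of 51.1. Acta2 read 13.91, 14.06 and 13.99 in controls 1, 2 and 3, and the next were the myosin kinase gene Mylk (11.92 ± 0.07) and the actin-binding protein gene Smtn (10.15 ± 0.21). Tagln, another actin-binding smooth muscle gene, was in the dimmest band at 5.69 ± 0.41, and Cnn1, the calponin gene of mature smooth muscle, was not above background on any array.

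Vessels were well represented at middle brightness. Endothelial genes had 17 of 19 above background (89.5%), 13 of them in the upper 3 bands, at a median percentile of 53.9. The secreted factor gene Egfl7 (10.56 ± 0.13), the venous receptor gene Ephb4 (10.25 ± 0.18) and Emcn (10.07 ± 0.08) led, and the arterial ligand Efnb2 averaged 7.21 ± 0.22. Kdr, the main receptor for vascular endothelial growth factor, was not above background by either of its 2 probes, and neither was the transcription factor gene Erg, also with 2 probes, while Flt1, the companion receptor of Kdr, averaged 9.07 ± 0.10.

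Blood cells split by lineage. Erythroid genes had 11 of 13 above background (84.6%), with a median percentile of 69.8. After the adult globins, the embryonic globin gene Hbb-y read 12.48, 12.68 and 12.91 in controls 1, 2 and 3, and Hba-x averaged 9.84 ± 0.23. The anion exchanger gene Slc4a1 (9.36 ± 0.57) and Alas2 (8.85 ± 0.24), which starts heme synthesis in red cells, were also clear, whereas Epb42 was not above background. Macrophage genes had 11 of 15 above background (73.3%), all in the fourth and the dimmest band, with a median percentile of 20.9. It was 31.9 by the dimmest probe of each gene and 34.6 where 1 array sufficed. Both alternatives change the genes that are ranked beside them, so such a rise in percentile is not a higher signal. The mannose receptor gene Mrc1 (7.04 ± 0.17), Fcer1g (6.97 ± 0.39) and the chemokine gene Pf4 (6.83 ± 0.24) were its brightest, and the receptor gene Csf1r averaged 6.34 ± 0.22. Tyrobp, C1qa and Itgam were not above background, although C1qb and C1qc, which encode the partner chains of C1qa, were. Of 12 lymphoid and mast cell genes only Cpa3 (5.57 ± 0.43) and Ms4a1 (5.33 ± 0.28) were above background, or 16.7%. The T cell genes Cd3e, Cd4 and Cd8a and the B cell gene Cd79b were not. Neither were the killer cell genes Nkg7 and Gzmb and the mast cell genes Mcpt4, Tpsb2 and Fcer1a.

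Germ cell genes lay mostly in the brighter part of the ranking. Of 21 on the array 18 were above background (85.7%), 6 in the brightest band and 6 in the second, with a median percentile of 65.9. Dppa4, a gene of pluripotent and germ cells, read 12.56, 13.43 and 12.43 in controls 1, 2 and 3, and was highest in control 2. By its dimmest probe above background it stood at percentile 14.6 in place of 98.5. Dppa5a averaged 12.46 ± 0.09. Dazl, the RNA-binding protein gene that licenses germ cells for sexual differentiation, read 11.57, 11.96 and 11.40. The pluripotency genes were still measured, with Pou5f1 at 9.13 ± 0.54, Nanog at 9.08 ± 0.25 and Sox2 in the dimmest band at 5.67 ± 0.37. The early specification genes Prdm1 and Prdm14 were not above background on any array, and neither was Rhox6.

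Genes of male germ cell fate and the piRNA pathway had 14 of 16 above background (87.5%). None lay in the brightest band, and the median percentile was 52.9. Asz1, a piRNA pathway gene, read 9.55, 10.89 and 9.49 in controls 1, 2 and 3. Nanos2, the RNA-binding protein that sets male fate, read 9.60, 10.54 and 9.40, and Piwil2, which encodes a protein that binds piRNAs, 9.62, 10.51 and 9.12. Control 2 was the highest in each. The Nodal pathway, active in male germ cells around this age, gave its feedback inhibitors Lefty1 (8.39 ± 0.50) and Lefty2 (8.23 ± 0.38) in the middle band, and Nodal itself at 6.43 ± 0.26. Its coreceptor Tdgf1 was not above background by its only probe, and neither was the piRNA gene Mael.

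The middle of the ranking held genes of many cell types side by side. The middle band, between 7.54 and 8.73, holds by construction 1985 of the 9925 genes above background. In it were 6 of the 17 endothelial genes above background and 5 of the 23 Sertoli genes, the latter near the share of all genes. It also held 4 of the 14 male germ cell genes and 3 of the 11 cholesterol synthesis genes. None of the 18 germ cell genes and none of the 51 ribosomal protein genes lay there. From the brightest to the dimmest, the Sertoli members of this band ran from Tesc (8.64 ± 0.22) to Hsd17b3 (7.55 ± 0.17), which completes testosterone synthesis. The endothelial members ran from Plvap (8.50 ± 0.19) to Vwf (7.90 ± 0.29), the male germ cell members from Mov10l1 (8.66 ± 0.69) to Tdrd9 (7.61 ± 1.19), and the Leydig members from Cyp11b1 to the adhesion gene Vcam1 (8.27 ± 0.23). Interstitial Igf1 (7.94 ± 0.14) and Pdgfrb (7.71 ± 0.31), the smooth muscle actin Actg2 (7.60 ± 0.59) and the Y-linked demethylase gene Kdm5d (8.14 ± 0.20) were there as well. Single or few members of the housekeeping lists also lay in it. They ran from Set (8.70 ± 0.13) to Hmgb2 (8.37 ± 0.30) for chromatin, from Col5a2 (8.64 ± 0.03) to Tnc (7.59 ± 0.07) for the matrix, from Ndufb9 (7.95 ± 0.35) to Ndufb4 (7.61 ± 0.03) for respiration and from Mvd (8.12 ± 0.13) to Nsdhl (7.58 ± 0.10) for cholesterol synthesis. Pgam1 (8.40 ± 0.25), Psmb5 (8.39 ± 0.26), Mcm3 (8.12 ± 0.12), Cct5 (8.01 ± 0.29) and Myl12a (7.63 ± 0.11) stood there alone for glycolysis, the proteasome, replication, chaperones and the cytoskeleton.

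**Figure D3:**
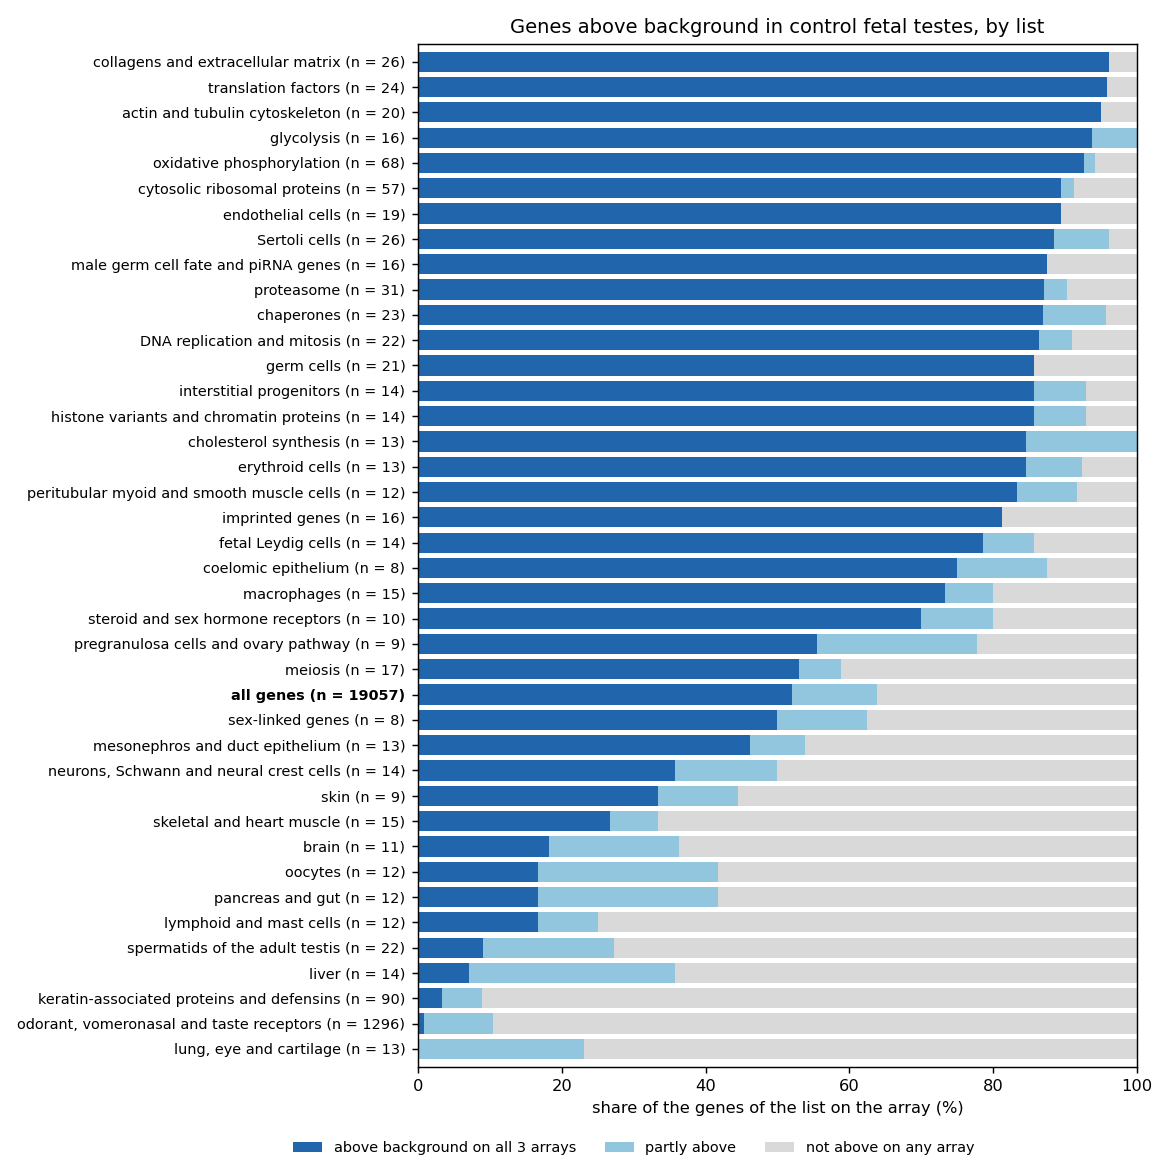
Share of the genes of each list on the array (horizontal axis, %) that were above background on all 3 control arrays, partly above, or not above on any array. All genes together (bold) stood at 52.1% above background, extracellular matrix genes at 96.2%, and lung, eye and cartilage genes at 0%.

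Lists of mesonephros, coelomic epithelium and nerve genes were above background in part. Mesonephros and duct genes had 6 of 13 above background (46.2%), near the 52.1% of all genes. That share does not show that the tissue was present. Hoxd10 (10.87 ± 0.08), a body axis factor, Lhx1 (8.96 ± 0.10) and Ret (7.99 ± 0.44), the receptor for Gdnf, were the brightest. The duct factors Pax2, Gata3 and Wnt9b, as well as Epcam, Calb1 and Hoxa10, were not above background on any array, and Pax8 was partly above. Coelomic epithelium genes had 6 of 8 above background, led by Upk3b (9.11 ± 0.26) and Upk1b (8.59 ± 0.34), with the keratin gene Krt8 at 8.06 ± 0.23. Msln was not above background. Nerve, Schwann and neural crest genes had 5 of 14 above background, a share of 35.7% that is under that of all genes. Map2 (8.94 ± 0.07), Sox10 (8.43 ± 0.21) and Syt1 (6.39 ± 0.46) were the brightest, while the neuronal genes Tubb3, Elavl3, Snap25, Chga, Chgb and Dbh and the neural crest factor Foxd3 were not above background.

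Of 9 pregranulosa and ovary genes 5 were above background, a share of 55.6% that is near the 52.1% of all genes. Of these 5 genes 4 lay in the dimmest band, and the median percentile of the 5 was 17.9. It was 27.9 by the dimmest probe of each gene and 26.9 where 1 array sufficed, a shift in rank and not a higher signal. Wnt4 led with 7.26 ± 0.12, before Irx3 (6.27 ± 0.21) and Lgr5 (6.16 ± 0.36). Bmp2 was not above background, and Foxl2, the defining factor of the ovary, was not above it either, at 4.34, 4.44 and 4.49. Oocyte genes had 2 of 12 above background, or 4 where control 3 was left out. These were Sohlh1 at 6.47, 8.80 and 6.49 in controls 1, 2 and 3, a gene that spermatogonia use too, and Gdf9 (5.92 ± 0.11). The zona pellucida genes Zp2 and Zp3 and the oocyte genes Nobox, Figla, Lhx8, Oosp1 and H1f8 were not above background.

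Of 17 meiotic genes 9 were above background, a share of 52.9% that is near the 52.1% of all genes. Their median percentile was 19.4. It was 30.02 by the dimmest probe of each gene and 33.4 where 1 array sufficed, again a shift in rank and not a higher signal. Spo11, which makes the double-strand breaks of meiosis, was the brightest with 8.65, 9.51 and 9.47, followed by Syce1 (7.95 ± 0.48) and Tex11 (7.83 ± 0.24). The gatekeeper Stra8, the meiotic gene Meioc and the chromosome axis and recombination genes Sycp3, Dmc1, Hormad1, Msh4 and Mei4 were not above background on any array. Other axis and recombination genes were above background in all 3 testes, namely Rec8 (6.41 ± 0.22), Sycp2 (6.13 ± 0.69), Hormad2 (5.44 ± 0.20) and Msh5 (5.23 ± 0.07). Genes of the spermatids of the adult testis had 2 of 22 above background, Tssk2 (5.38 ± 0.04) and Zpbp (5.25 ± 0.24), and 16 passed on no array. These were the chromatin genes Tnp2, Prm3, H1f7 and Hils1, the kinase genes Tssk1 and Tssk6, the tail genes Akap4, Odf1 and Catsper1, the metabolic genes Pgk2, Gapdhs and Oaz3, and Acrv1, Izumo1, Adam2 and Adam3 of the sperm head and surface. The protamine gene Prm1, which packs sperm DNA, was partly above.

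Genes of other organs were mostly not above background, in contrast to the 52.1% of all genes. Liver genes had 1 of 14 above background, Ahsg (6.22 ± 0.52), and 2 or 3 without control 2 or control 3. Alb, the defining liver gene, was not above background, nor were Fga, Fgb, Fgg, Apob, Serpina1a, Cps1, Tat and Cyp2e1. Brain genes had 2 of 11, Syn1 (8.55 ± 0.84) and Mbp (6.96 ± 0.22), while the transmitter genes Gad1, Gad2 and Slc17a7, the glial genes Gfap and Mog and the neuronal factors Neurod1 and Neurod6 were not above background. Skeletal and heart muscle genes had 4 of 15, all in the dimmest band and led by Myl1 (6.19 ± 0.23), Mylpf (6.04 ± 0.15) and Tnni3 (5.74 ± 0.39). The myogenic factors Myod1 and Myog and the genes Ckm, Acta1, Actc1, Tnnt3, Tnnc2, Myh7, Nppa and Nkx2-5 were not above background. Pancreas and gut genes had 2 of 12, Cpa1 (7.89 ± 0.10) and Cela2a (7.20 ± 0.68), and Pdx1, Ptf1a, Cdx2, Gcg, Sst, Vil1 and Fabp2 were not above background. Skin genes had 3 of 9, with Krt10 (9.30 ± 0.14) and Lor (9.23 ± 0.02) in the second band, and Krt14 at 7.20 ± 0.14, while Krt5, Krt1, Trp63, Dsg3 and Ivl were not above background. Lung, eye and cartilage genes had 0 of 13, or 1 where control 3 was left out, and 10 passed on no array: the lung genes Sftpa1, Sftpb, Sftpc, Scgb1a1 and Nkx2-1, the eye genes Rpe65, Cryaa and Crybb2, and the bone genes Ibsp and Sp7.

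Among the lists, the largest block of genes not above background was chemosensory. Of 1296 odorant, vomeronasal and taste receptor genes 1161 were not above background on any array and 125 were partly above. The 10 above background were all odorant receptor genes of the dimmest band. The brightest, Olfr724, read 5.86, 5.66 and 5.79 in controls 1, 2 and 3, Olfr323 averaged 5.76 ± 0.10 and Olfr330 5.72 ± 0.28, and the dimmest of them, Olfr1161, averaged 5.12 ± 0.16. Requiring only 2 arrays, by leaving out control 1, 2 or 3, gave 19, 21 and 18 of them. Keratin-associated proteins and defensins other than Defb19 had 3 of 90 above background, all defensins, namely Defb36 (7.23 ± 0.34), Defb42 (6.15 ± 0.10) and Defb25 (5.85 ± 0.19).

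Genes that every cell uses were also among those not above background. The ribosomal protein genes Rps23, Rps20, Rpsa, Rpl6 and Rpl17, the initiation factor gene Eif3e, the chromatin gene Hmgb1 and the chaperone gene Canx were examples, as were Psma3, Psma6 and Psma1 of the proteasome and Ndufb11, Uqcrfs1, Sdha and Ndufs1 of respiration. The mitotic genes Bub1 and Ccnb2, the tubulin gene Tubb2a and the matrix gene Postn, which are not used by every cell, were not above background either. Of the mitochondrial genome, ND6 was not above background while CYTB stood at 14.68. The imprinted genes Zim1, Plagl1 and Sgce and the receptor genes Pgr and Nr3c2 were not above background either. Hormone receptor genes had 7 of 10 above background, at a median percentile of 26.1, with Amhr2 (10.79 ± 0.18), the receptor gene for the Amh hormone, Igf1r (9.79 ± 0.07) and Insr (9.54 ± 0.11) ahead. A gene that is not above background here had no probe that passed the detection threshold, which is a weaker statement than no transcript.

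Probes of the same gene show how weak it is. Of 9172 genes with several probes, 6087 had at least 1 above background on all 3 arrays, and 3331 of these (54.7%) also had a probe that passed on no array. Where at least 2 probes were above background, in 3536 genes, the brightest exceeded the dimmest by a median of 1.72 on the log2 scale, and by more than 1 in 67.1% of them. Of the 6890 genes not above background 71.7% had a single probe, against 38.7% of the 9925 genes above it.

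The sex-linked genes showed a male profile in all 3 testes. Eif2s3y, a Y-linked initiation factor gene, read 10.82, 10.94 and 10.36 in controls 1, 2 and 3. Kdm5d, Usp9y and Uty were also above background on all 3 arrays. No probe of Xist, which silences an X chromosome in females, passed on more than 1 of the 3 arrays. Sry, whose expression has largely ended by this age, was not above background at 4.33, 4.36 and 4.33, and neither were Zfy1 and Zfy2.

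The CpG content of promoters was lower from band to band down the ranking. Promoters of 250 bases before and 50 after the start came from RefSeq on build GRCm38.p6. They matched 15207 genes of the array, 12630 of them with 1 promoter, and only protein-coding genes with 1 promoter were used, 14730 in the whole table. The ratio of observed to expected CpG had a median of 0.830 in the brightest band and 0.815, 0.801, 0.763 and 0.692 in the following bands. It was 0.436 in genes partly above background and 0.250 in genes not above it, or 0.332 there without the chemosensory receptors. A GC box before the start (GGGCGG on either strand, so also CCGCCC) stood in 66.5% of promoters of the brightest band, 55.4% of the dimmest band and 24.7% of genes not above background, against 41.8% of all these promoters. The TATA motif, searched as TATAA on the gene's strand between 50 and 16 bases before the start, followed another course. It stood in 2.85% of promoters of the brightest band, 1.66, 1.63, 1.53 and 3.69% of the next bands, 6.84% of genes partly above, 9.54% of genes not above, and 5.80% of all. In the 100 brightest it was found in 9 of 66 promoters, or 13.6%. In their median CpG ratio, 0.833, these 66 promoters were like the brightest band, but other features differed from it. A GC box was found in 36 of them (54.5%), near the share in the dimmest band. Their median GC content was 58.2%, against 62% in the brightest band and 60.3% in the dimmest.

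**Figure D4:**
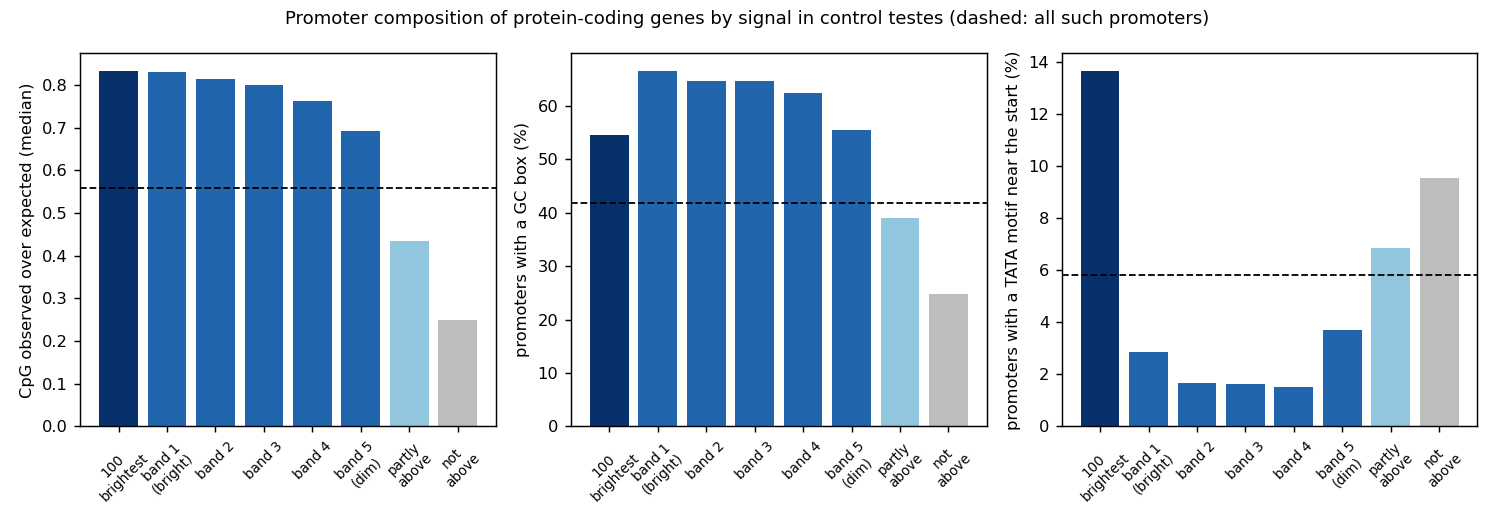
Composition of promoters of protein-coding genes by the signal of the gene in the control testes: median ratio of observed to expected CpG, share with a GC box and share with a TATA motif near the start. Bars run from the 100 brightest genes through the 5 bands to genes partly and not above background, and dashed lines give all 14730 promoters. CpG is lower from the brightest band on, down to 0.250. The GC box share in the 100 brightest (54.5%) is near that in the dimmest band (55.4%). The TATA motif stands at 13.6% in the 100 brightest genes (9 of 66 promoters), but at 2.85% in the brightest band that holds them. It stands at 9.54% in genes not above background, against 5.80% of all promoters.

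Both motifs occur in promoters of the brightest genes and of the cell type genes, as the following chosen stretches show. Each runs from 80 bases before to 20 bases after the start, 5′ to 3′ on the gene's strand, with TATAA near the start or any GC box in capitals. Not every promoter has either, and the same stretch of the germ cell gene Dazl, not printed, has neither. The globin genes Hbb-bt (chr7:103813904-103814003, minus strand) and Hba-a1 (chr11:32283592-32283691, plus strand), the Leydig gene Insl3 (chr8:71689172-71689271, plus strand), the male germ cell gene Nanos2 (chr7:18987444-18987543, plus strand) and the spermatid gene Prm1 (chr16:10796804-10796903, minus strand) have the TATA motif. The housekeeping genes Eef1a1 (chr9:78481705-78481804, minus strand) and Rps2 (chr17:24719983-24720082, plus strand) and the Sertoli gene Dhh (chr15:98898521-98898620, minus strand) have GC boxes. Insl3 has a GC box as well as the TATA motif.
Hbb-bt: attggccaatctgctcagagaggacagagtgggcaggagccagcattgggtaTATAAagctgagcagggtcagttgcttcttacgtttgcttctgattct
Hba-a1: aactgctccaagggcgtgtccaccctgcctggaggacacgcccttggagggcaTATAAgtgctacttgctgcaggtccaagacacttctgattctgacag
Insl3: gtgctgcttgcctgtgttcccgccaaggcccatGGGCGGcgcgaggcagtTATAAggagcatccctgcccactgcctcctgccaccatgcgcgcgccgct
Nanos2: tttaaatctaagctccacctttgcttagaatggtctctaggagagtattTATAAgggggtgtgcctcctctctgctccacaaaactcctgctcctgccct
Prm1: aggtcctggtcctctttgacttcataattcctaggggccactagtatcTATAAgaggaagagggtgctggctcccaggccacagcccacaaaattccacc
Eef1a1: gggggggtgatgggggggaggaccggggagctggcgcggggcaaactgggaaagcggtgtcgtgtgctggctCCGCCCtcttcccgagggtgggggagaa
Rps2: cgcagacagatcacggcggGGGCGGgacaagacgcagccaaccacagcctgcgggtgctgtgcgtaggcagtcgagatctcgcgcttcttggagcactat
Dhh: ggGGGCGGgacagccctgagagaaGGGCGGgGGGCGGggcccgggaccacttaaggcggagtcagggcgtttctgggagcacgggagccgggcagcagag

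Among these 8 chosen genes the motif went with different levels, but so few chosen genes cannot show how motif and brightness are related. With a TATA motif 28 bases before its start, Hbb-bt stood at 14.89 in log2 intensity, whereas Prm1, with the motif 32 bases before its start, was above background on some arrays only. Eef1a1, the brightest of the named genes, has a GC box and no TATA motif in its window. The TATA motif was found in 4 of 10 erythroid promoters, beside 5.80% of all promoters. In ribosomal protein promoters it was found in 2 of 39 (5.13%), near the share of all. A match is a description of letters in this window and not a shown binding site.

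The control testes differed little from each other in most genes. The SD over the 3 arrays had a median of 0.16 on the log2 scale, from 0.11 in the brightest band to 0.22 in the dimmest, and it exceeded 0.5 in 341 of the 9925 genes. The 10 genes with the largest SD were Cap1, Hbb-b2, Dnmt3l, Nlrp14, Fgfr1op2, Clasrp, Usp9y, Tktl1, Rrad and Erdr1. Cap1, an actin regulator gene, read 6.58, 10.15 and 10.48 in controls 1, 2 and 3 and was low in control 1. Hbb-b2, a beta globin gene that differs between mouse strains, read 9.59, 9.28 and 5.91 and was low in control 3. Erdr1, at 10.99, 8.63 and 11.12, and Clasrp, at 8.27, 5.79 and 8.73, were low in control 2.

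Germ cell genes were mostly highest in control 2 and lowest in control 3. Dnmt3l, a partner of the DNA methyltransferases in the male germline, read 6.65, 9.23 and 5.91 in controls 1, 2 and 3, and its other probe 6.39, 8.89 and 5.93. Nlrp14 (7.35, 8.42 and 5.21), a gene of germ cells, and Tktl1 (6.48, 8.20 and 5.39) were also highest in control 2. Usp9y, on the Y chromosome, read 5.82, 8.08 and 5.22. Of the 18 germ cell genes above background 15 had their highest value in control 2, and of the 14 male germ cell genes 11 did, beside 34.2% of all genes above background. The median deviation of control 2 from the mean of a gene was 0.42 in the germ cell list and 0.72 in the male germ cell list on the log2 scale, and -0.01 over all genes. Control 3 was lowest in 11 of the 18 and in 11 of the 14, beside 3060 of the 9925 genes above background. Its median deviations in these lists were -0.27 and -0.48, and those of control 1 were -0.14 and -0.16. Lefty1 and Lefty2 went the other way and were lowest in control 2, at 7.81 and 7.87.

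Lists of somatic cell types had smaller median deviations in control 2, in both directions, among them 0.17 in coelomic epithelium, 0.10 in erythroid genes and -0.01 in fetal Leydig genes. Of the 23 Sertoli genes above background 17 had their lowest value in control 2, beside 39.3% of all genes, with a median deviation of -0.18. Replication and mitosis genes had their lowest value there in 15 of 19, but in 6 of 19 when arrays were scaled to the same median in place of quantile normalization. The counts for control 2 in germ cell, male germ cell and Sertoli genes were between 11 and 17 under every scaling tried and moved by at most 1. Since each fetus came from its own dam, differences of litter, of exact developmental stage and of the array cannot be told apart in these 3 samples.

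**Figure D5:**
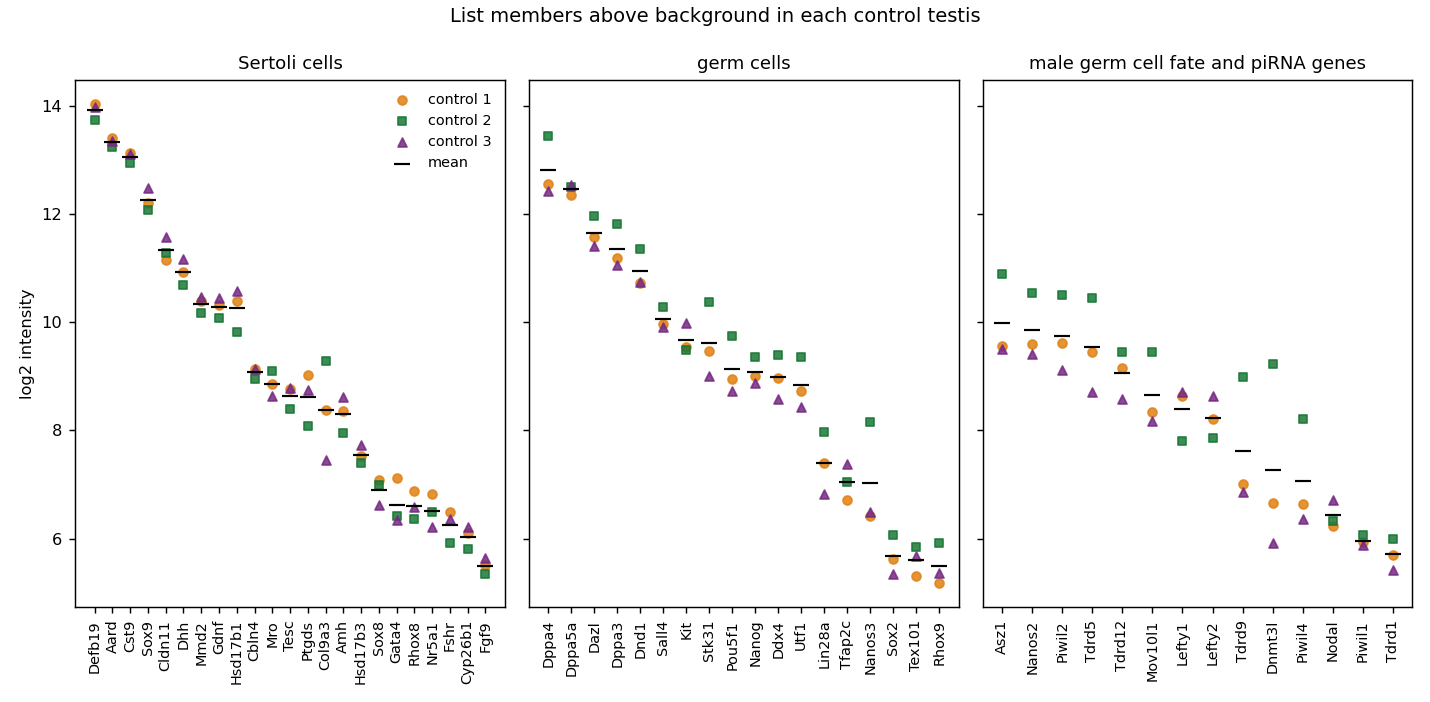
Log2 intensity (vertical axis) of every Sertoli, germ cell and male germ cell gene above background (horizontal axis, by mean) in each control testis, with the mean of 3 as a bar. Control 2 (squares) lies above the other controls in 15 of 18 germ cell genes and 11 of 14 male germ cell genes, and lowest in 17 of 23 Sertoli genes. Control 3 (triangles) lies lowest in 11 of the 18 germ cell genes and 11 of the 14 male germ cell genes.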

How the data were processed

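GenomeStudio 2010.3 is named in the submitters' processing notes. For each probe and array, the deposited values are an intensity on a linear scale, neither normalized nor background-subtracted per the file headers, its standard error, the count of beads behind it and a detection p-value, taken here to be against the negative controls. The sources used here do not say how the authors computed that p-value. The authors' processed intensity values proved to be the raw ones times 1 factor per array, and served as an alternative.

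From there, limma 3.58.1 in R 4.3.3 was run with neqc, which infers the background from the detection p-values, adds an offset of 16, normalizes quantiles over all 6 arrays and takes log2. The ranking step was also tested on simulated data. Probes were named through the platform table: 34885 had 1 gene symbol, 18 several and 10378 none. Of the named probes, 34807 took a current RefSeq symbol and 78 kept the old one. No groups were compared and no p-value was computed. Replicates are separate animals, and their number limits the precision. The members and lists were chosen with earlier results of these data known.

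Described are 39 lists of genes of cell types, functions and other organs, 2 of them formed by symbol prefix. Named were the 30 brightest genes, the 3 brightest of each list, the brightest and dimmest of each list in the middle band, list members not above background, and the 10 genes with the largest SD. Genes with clone or predicted symbols were counted and not named, as were the chemosensory and keratin-associated genes not above background. Any other gene named, in the text or on a plot, was chosen after its values were seen. Alternatives changed the background correction, the normalization, the arrays used in it, the values, the detection threshold, the number of arrays required, the probe that stands for a gene, and the replicates.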

Additional observations from a re-analysis of the deposited data

Results flagged for a closer look

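Probes with no single gene symbol carried signal that enters no list. Of 10396 such probes, 2482 (23.9%) were above background on all 3 control arrays, against 42.7% of the 34885 named probes, and 36 of the 100 brightest probes on the arrays were among them. They are unnamed here, which does not mean that they have no gene.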

How the results depend on the processing

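The number of genes above background was 9174 at a detection p under 0.01, 10791 and 12167 where at least 2 or at least 1 array had to pass, and 10159 to 10290 with 1 control array left out, all within 1.5 times the 9925 reported. Settings that change only the values cannot change which genes pass. At p under 0.01, lymphoid and mast cell genes had 0 above background, spermatid genes 0 and chemosensory receptors 5. With at least 2 arrays required, oocyte genes had 4, liver 4, lung, eye and cartilage 1 and chemosensory receptors 38. With at least 1 array, these were 5, 5, 3 and 135, and spermatid genes had 6, brain 4, pancreas and gut 5, and keratin-associated proteins and defensins 8. With 1 control array left out, oocyte genes had 2 to 4, liver genes 1 to 3, lung, eye and cartilage genes 0 to 1 and chemosensory receptors 18 to 21. Fewer arrays required is by construction a weaker rule. The dimmest probe of each gene shared 59 of the 100 brightest genes and put 7 translation factors in the brightest band. The median SD between control testes was 0.108 without background correction, 0.181 with median scaling, 0.109 in the authors' processed table, 0.183 with genes above background on at least 1 array, and 0.112 to 0.144 with 1 control array left out. Replication genes lowest in control 2 numbered 6 with median scaling, an alternative chosen after seeing the data, and its cause was not tested. Of the other counts of list members above background, 212 stayed within 1.5 times the reported count, as did 153 of the counts in the brightest band. Of the median percentiles of lists under all alternatives, 200 moved by less than their spread between arrays and 108 by more. For genes named by rule, 1098 percentiles moved by less and 358 by more. The choice of probe moved these percentiles most. With the dimmest probe, 62 of 133 shifted by more than 10 percentiles and by up to 95.8. Grb10 fell to 2.96, Pkm to 0.625, Rpl23 to 22.5 and Ybx1 to 24.4. Others among the 62 have 1 probe, such as Mrc1 (31.9 to 48.6) and Sox10 (55.0 to 70.9). Their signal was unchanged, and they rose in rank because genes with several probes fell past them. The median percentile of neural genes was 33.3 at p under 0.01 and 14.2 with the dimmest probe, and that of chemosensory receptors lay between 3.00 and 12.1. No paired analysis was possible because no groups were compared and no result comes from a test. Signals near background limit what can be said of dim genes.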

Other observations

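Gene families defined by symbol prefix, a choice made after seeing the data, add to the picture of the control testes. Mitochondrial ribosomal proteins had 73 of 76 genes above background, with a median percentile of 73.8, and Rab GTPases of vesicle traffic 53 of 70. Kinesin motor genes had 25 of 33. Zinc finger proteins named Zfp had 216 of 331 but a median percentile of 35.0. Sox transcription factors had 13 of 19 (68.4%), and the families named so far were all above the 52.1% of all genes. Forkhead factors had 19 of 44 (43.2%) and Hox factors 16 of 39 (41.0%), both under it. Secreted signals had lower shares still, with 5 of 19 Wnt ligands (26.3%) and 5 of 22 fibroblast growth factors (22.7%). Potassium channels had 19 of 75, interleukins and their receptors 15 of 77, chemokines 7 of 34, cytochrome P450 enzymes 14 of 86 and keratins 10 of 49, all under the 52.1% of all genes.

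S100a8, S100a9 and Camp, chosen after their values were seen, were highest in control 1. S100a8 read 9.11, 8.16 and 6.65 in controls 1, 2 and 3, S100a9 8.40, 7.08 and 5.93, and Camp, a cathelicidin gene, 6.83, 5.12 and 5.02. The adult globins Hbb-bs and Hba-a1 were instead lowest in control 1.

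Among the 100 genes with the largest SD, 70 had their highest value in control 2, 15 in control 1 and 15 in control 3. Of all genes above background 34.2% were highest in control 2. Besides the genes already named, Mageb4 read 8.91, 10.40 and 7.96 in controls 1, 2 and 3, Gtsf1, a piRNA pathway gene, 6.91, 8.52 and 6.05, Rhox10 7.12, 9.17 and 7.27, Nxf2 6.19, 8.02 and 5.82, and Piwil4 6.64, 8.21 and 6.35. These were chosen after their values were seen. Other genes of the 100 were highest in control 2 too, such as Ccng2 (6.51, 8.47 and 5.78) and Pkd2l1 (6.72, 8.86 and 6.29).

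By chromosome, the share of genes above background was 48.7% on the X, and between 43.9% on chromosome 7 and 59.8% on chromosome 8 over the autosomes. Of 19 Y-linked genes 5 were above background. Long noncoding RNA genes had 99 of 417 above background, or 23.7%.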
